A study of Mus musculus with 9 samples.

Results

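Transcript levels in 3 osteopontin-null mouse hearts were compared with those in the 6 hearts of the same series in which the osteopontin gene was intact. The null hearts came from Col4a3-/-OPN-/- mice, and the intact hearts were 3 from wild type and 3 from Col4a3-/- mice, all 2 months old. Both intact genotypes were pooled, so that a gene had to differ from the 6 intact hearts together. Of 33793 probe sets on the array, the 16896 whose mean log2 signal over the 9 arrays lay above 5.21, the median of all probe sets, were compared. They included 13650 with 1 gene symbol, which stood for 13085 genes. All null hearts also lacked Col4a3, and the 3 wild type hearts carried it, so the comparison crosses both deletions. No group lacked osteopontin alone. The labels give no sex, strain or litter, and nothing beyond the genotype tells how either deletion was made.

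Osteopontin, the product of Spp1, is a secreted phosphorylated glycoprotein that binds integrins and Cd44 and is made by activated macrophages, injured epithelium and stressed muscle. In the heart it is known for its rise with pressure overload and fibrosis. Col4a3 encodes a chain of the type IV collagen network of basement membranes, and its loss in the mouse serves in mice to model Alport syndrome, a hereditary disease of the kidney. The title of the series places both genes in heart failure with preserved ejection fraction and names mitochondria.

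Values are log2 signals of the array, on which 1 unit is a doubling. A gene was called where limma's moderated test gave a Benjamini-Hochberg adjusted p under 0.05 over all 16896 probe sets. In the whole comparison 3 probe sets (0.0178%) were called, 1 higher (0.00592%) and 2 lower (0.0118%) in null hearts. At an unadjusted p under 0.05 there were 1406 (8.32%), 667 higher (3.95%) and 739 lower (4.37%). That split depended on the scaling and was 958 higher to 483 lower with each array centred on its median. All 3 null hearts lay outside the range of the 6 intact hearts at 778 probe sets (4.60%), 389 above (2.30%) and 389 below (2.30%).

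The called gene was Ppbp, which encodes pro-platelet basic protein, a chemokine stored in platelet granules. In replicates 1 to 3 of each genotype, the signal of Ppbp was 5.14, 5.52 and 5.22 (wild type), 4.89, 4.95 and 5.37 (Col4a3-/-) and 7.01, 6.46 and 6.44 (null). Every null heart stood above every intact heart, and the intact hearts lay near the median of all probe sets. Ppbp rose in null hearts by 1.45 log2 units (SE 0.16, limma adjusted p = 0.00901). The intact mean of 5.18 lay under the 5.21 required for testing, so the size of the rise is uncertain. From the wild type hearts alone the difference was 1.34 (limma adjusted p = 0.103) and from the Col4a3-/- hearts alone 1.56 (limma adjusted p = 0.0185), with the same 3 null hearts in both. The call was lost in 2 of the 23 other settings that tested Ppbp. In 1 of them replicate 1 of both Col4a3-/- and Col4a3-/-OPN-/- was left out (1.21, limma adjusted p = 0.151). In the other the replicate number was a block, though replicate numbers did not pair the hearts.

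Gp9, which encodes a subunit of the platelet receptor for von Willebrand factor, came next among named genes, below the threshold. It was at 5.94, 5.91 and 5.58 in wild type hearts, at 5.90, 5.46 and 5.51 in Col4a3-/- hearts and at 6.54, 6.65 and 6.38 in null hearts. The null hearts were again the 3 highest. The log2 difference was 0.80 (SE 0.14, limma adjusted p = 0.280). P2ry12, the platelet receptor for ADP, was in no list and was chosen after its values were seen. It ran from 5.09 to 5.77 in intact hearts and from 5.86 to 6.01 in null hearts, a difference of 0.53 (SE 0.13, limma adjusted p = 0.397).

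Other platelet genes did not follow. Pf4, the gene of platelet factor 4, is the neighbour of Ppbp on chromosome 5 and encodes the other abundant chemokine of platelet granules. It was at 6.85, 6.90 and 6.25 in wild type, at 6.72, 7.05 and 7.13 in Col4a3-/- and at 7.19, 6.73 and 6.92 in null hearts, and the groups overlapped (difference 0.13, SE 0.19, limma adjusted p = 0.876). Of 15 platelet and megakaryocyte genes listed, 12 were measured and 8 passed the filter on low signal. Ppbp and Gp9 were the 2 of these 8 with an unadjusted p under 0.05, where 3.87% of all named genes were higher and 2.87% lower at that level. The median difference of the 8 was 0.09, against 0.03 over all named genes. Their median signal in each heart ran from 5.68 to 6.27 in intact and from 6.41 to 6.77 in null hearts. Ppbp and Gp9, picked by this same comparison, are among the 8, so these levels are no separate result. Differences of the 8 were positive in 5 and negative in 3. In these samples of whole tissue, more cells of a type and more RNA per cell cannot be told apart. Of other blood cells, 2 red blood cell and 3 neutrophil genes passed the filter, with median signals of 6.09 to 6.59 and 5.57 to 5.91 in intact hearts. In null hearts these were 6.04 to 6.30 and 5.49 to 5.76, and their part in the platelet signal was not tested.

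The promoters of these 3 platelet genes are shown because Ppbp and Pf4 are neighbours that differed in behaviour here. Sequences are those of RefSeq in GRCm38.p6, each from 250 bases before to 50 bases after the start of the gene on the plus strand. They span chr5:90768268-90768567 for Ppbp, chr5:90772185-90772484 for Pf4 and chr6:87777820-87778119 for Gp9. Capitals mark TATAAA, the core letters of a TATA box, and AGATAA or TGATAA, letters bound by GATA factors, each searched on both strands.
Ppbp: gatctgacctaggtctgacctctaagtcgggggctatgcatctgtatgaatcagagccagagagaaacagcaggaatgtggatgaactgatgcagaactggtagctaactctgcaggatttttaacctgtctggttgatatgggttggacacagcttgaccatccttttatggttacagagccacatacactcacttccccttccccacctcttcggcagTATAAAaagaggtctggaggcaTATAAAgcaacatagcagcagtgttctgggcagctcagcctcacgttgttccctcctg
Pf4: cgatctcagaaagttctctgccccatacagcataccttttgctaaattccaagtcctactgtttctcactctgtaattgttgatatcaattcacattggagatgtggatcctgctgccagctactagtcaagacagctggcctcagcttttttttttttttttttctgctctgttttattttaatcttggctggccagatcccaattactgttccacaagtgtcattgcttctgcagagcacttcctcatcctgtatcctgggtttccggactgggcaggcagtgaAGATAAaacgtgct
Gp9: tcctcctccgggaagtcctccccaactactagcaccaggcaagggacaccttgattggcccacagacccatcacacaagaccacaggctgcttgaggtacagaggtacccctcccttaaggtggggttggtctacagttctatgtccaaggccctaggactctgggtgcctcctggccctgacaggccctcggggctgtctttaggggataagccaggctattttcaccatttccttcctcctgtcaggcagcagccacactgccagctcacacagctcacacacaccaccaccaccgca
The Ppbp promoter held 2 matches to TATAAA and 0 to the GATA letters. The Pf4 promoter held 0 and 1, and that of Gp9 held 0 of both. Among 27025 promoters of this length, 3827 held TATAAA and 5122 held AGATAA or TGATAA on either strand. These matches describe the letters only.

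The 2 called probe sets that were lower in null hearts have no single gene name. Probe set 17503531, to which the annotation gives several symbols, had the largest change of all probe sets tested. It was at 9.08, 8.26 and 8.51 in wild type, at 9.53, 8.92 and 9.73 in Col4a3-/- and at 5.10, 4.89 and 5.48 in null hearts. The null hearts were thus near the median of all probe sets while every intact heart was bright. The signal fell by 3.85 (SE 0.29, limma adjusted p = 4.05e-04), and the call held in all 21 other settings in which the probe set was tested. Probe set 17440132 is not in the annotation used. It was at 9.83, 10.07 and 9.73 in wild type, at 10.30, 10.43 and 10.54 in Col4a3-/- and at 7.90, 8.29 and 8.45 in null hearts, so that the groups were more than 1 unit apart. It fell by 1.94 (SE 0.19, limma adjusted p = 0.00375). Without replicate 1 of both Col4a3-/- and Col4a3-/-OPN-/- that call was lost (difference -1.75, limma adjusted p = 0.151).

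**Figure D1:**
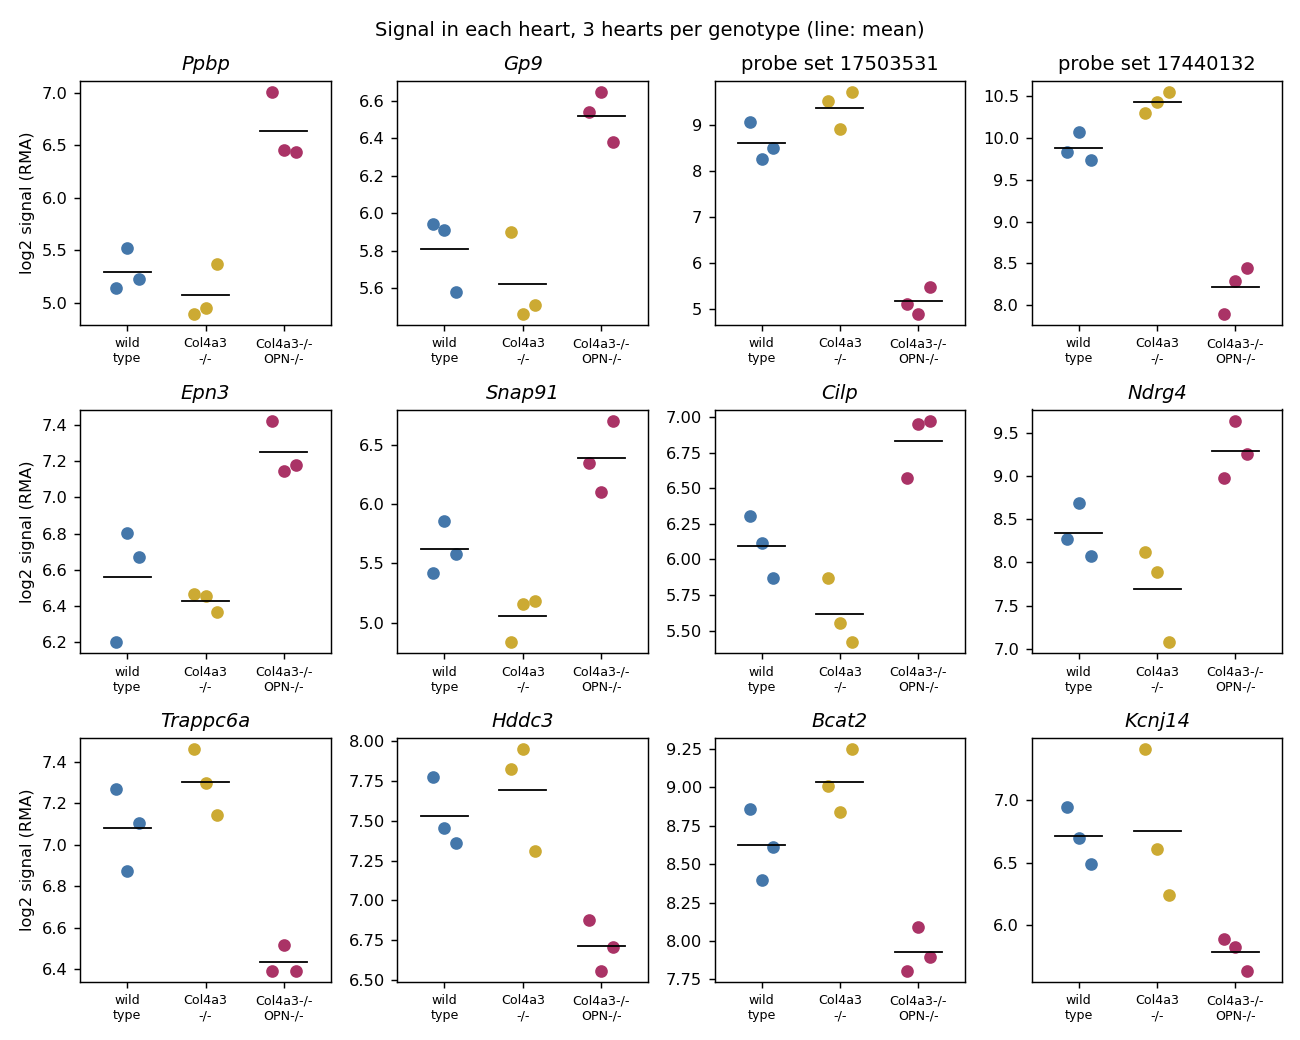
Log2 RMA signal of 12 probe sets in each heart, by genotype (x axis), with the mean of 3 hearts as a line; each panel has its own y axis. The 3 Col4a3-/-OPN-/- hearts lie outside the range of the 6 intact hearts in all 12 panels, which were chosen among the smallest p, and only Ppbp and the 2 probe sets shown by number were called.

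Below the threshold, the 15 named probe sets with the smallest p in each direction had limma adjusted p between 0.280 and 0.397, Ppbp aside. Null hearts stood outside the intact range in all 15 of the higher and in 14 of the 15 lower, where a choice by small p favours such genes. Snap91, which encodes a clathrin assembly protein, was at 5.42, 5.86 and 5.58 in wild type, 4.84, 5.16 and 5.18 in Col4a3-/- and 6.35, 6.10 and 6.70 in null hearts (difference 1.05, SE 0.20, limma adjusted p = 0.286). Epn3, the gene of the endocytic adaptor epsin 3, ran from 6.20 to 6.80 in intact and from 7.15 to 7.42 in null hearts (difference 0.75). Null hearts were the 3 highest for both genes.

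Ndrg4, a gene expressed in heart muscle and brain, had the largest difference of the higher named genes of this rule after Ppbp. It was at 8.27, 8.69 and 8.07 in wild type, 8.12, 7.89 and 7.08 in Col4a3-/- and 8.98, 9.64 and 9.26 in null hearts (difference 1.27, SE 0.28, limma adjusted p = 0.383). The difference was smaller from wild type (0.95) than from Col4a3-/- hearts (1.60). Scn4b, which encodes a regulatory subunit of the cardiac sodium channel, had a difference of 0.61, and Abcb1a, the drug efflux pump of endothelium, one of 0.58. Abca12, a lipid transporter gene, had 0.55 and Plcl1, a catalytically inactive relative of phospholipase C, 0.47.

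Cilp, which encodes a matrix protein of cartilage and cardiac fibroblasts, was at 6.30, 6.12 and 5.87 in wild type and at 5.87, 5.56 and 5.42 in Col4a3-/- hearts. Null hearts, at 6.57, 6.95 and 6.97, were the 3 highest (difference 0.97, SE 0.19, limma adjusted p = 0.286). The rest were Polh, the gene of the translesion polymerase eta (0.56), the centrosome genes Nedd1 (0.59) and Lrrcc1 (0.59), and the zinc finger genes Zfp619 (0.43) and Zfp235 (0.54). The intact means of Lrrcc1 (5.16), Zfp619 (5.13) and Zfp235 (5.07) lay under the 5.21 required for testing. These 3 passed only through the null hearts, so the sizes of their differences are uncertain.

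Among the lower genes, Bcat2 encodes the mitochondrial aminotransferase that starts the breakdown of branched-chain amino acids. It was at 8.86, 8.39 and 8.61 in wild type, 9.01, 8.84 and 9.25 in Col4a3-/- and 7.81, 8.09 and 7.89 in null hearts. No null heart reached the lowest intact heart, and the difference was -0.90 (SE 0.17, limma adjusted p = 0.286). Trappc6a, a gene of a complex that tethers vesicles at the Golgi, ran from 6.87 to 7.46 in intact hearts and from 6.39 to 6.52 in null hearts (difference -0.76, SE 0.13, limma adjusted p = 0.280). Hddc3, which encodes a hydrolase of NADPH and ppGpp, ran from 7.31 to 7.95 in intact and from 6.56 to 6.88 in null hearts (difference -0.90). Kcnj14, an inward rectifier potassium channel gene, ran from 6.24 to 7.41 and from 5.64 to 5.89 (difference -0.95).

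Gdpd3, the gene of a lysophospholipase D, split the null hearts. It was at 8.48, 8.56 and 7.87 in wild type, 8.93, 8.28 and 9.19 in Col4a3-/- and 5.36, 5.85 and 8.08 in null hearts. Null replicates 1 and 2 were more than 2 units under the lowest intact heart, while replicate 3 lay inside the intact range. The difference was -2.12 (SE 0.49, limma adjusted p = 0.390). Without null replicate 3 it was -2.95 and was called (limma adjusted p = 0.00978), but that heart is the one that departed from the pattern, so the call is no support for it. Other lower genes were Plekha7, which encodes a protein of adherens junctions (-0.55), Blvrb, the gene of biliverdin reductase B (-0.56), Slc25a48, a mitochondrial carrier gene (-0.43), and Snord13, a small nucleolar RNA that guides modification of ribosomal RNA (-0.58). The transcription factor genes Hes7 (-0.41) and Atoh7 (-0.41), the gene Aym1 (-0.69) and the predicted genes Gm5779 (-0.47), Gm5093 (-0.76) and Gm6238 (-0.54) completed the lower 15. The null means of Slc25a48 (5.06) and Gm5779 (5.07) lay under 5.21, so the sizes of these differences are uncertain too.

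Several of these genes lie on chromosome 7, which carries neither Spp1 (chromosome 5) nor Col4a3 (chromosome 1). Of the lower 15 genes 7 are there, namely Trappc6a, Hddc3, Bcat2, Kcnj14, Plekha7, Gdpd3 and Blvrb. Of the higher 15 there are 2, Zfp619 and Zfp235. Chromosome 7 holds 1026 of the 13023 tested genes placed on a chromosome. The chromosome was chosen after its values were seen, and its counts are a description. Of 1026 tested genes on chromosome 7, 118 (11.5%) had an unadjusted p under 0.05, 64 higher and 54 lower. On the other chromosomes 748 of 11997 did (6.24%), and over all named genes 6.75%. At an unadjusted p under 0.005 there were 26 genes of chromosome 7 (2.53%), against 0.917% of all named genes. The groups did not overlap at 6.82% of its genes, against 4.29% of all named genes.

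Among the other nuclear chromosomes, chromosome 14 followed with 8.71%, chromosome 15 with 8.26% and chromosome 9 with 7.83%, and the X chromosome was lowest at 3.90%. With all probe sets counted in place of 1 per gene, chromosome 10 was at 9.95% through Syne1, the gene of a giant protein of the nuclear envelope. Syne1 alone gave 56 tested probe sets, of which 27 were higher at an unadjusted p under 0.05 and 0 lower, with a median difference of 0.38. Per gene, chromosome 10 was at 6.25%. Against wild type hearts alone 5.36% of the genes of chromosome 7 had such a p, against 3.15% on other chromosomes and 3.32% over all genes placed on a chromosome. Against Col4a3-/- hearts alone the shares were 17.6%, 12.5% and 12.9%. These comparisons share the 3 null hearts. Col4a3-/- against wild type hearts, with no null heart involved, gave 8.67%, 8.06% and 8.11%. Over the alternatives tried for null against pooled intact hearts, the share on chromosome 7 was 1.44 to 2.03 times that on other chromosomes. Comparisons by genotype are not part of that range.

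**Figure D2:**
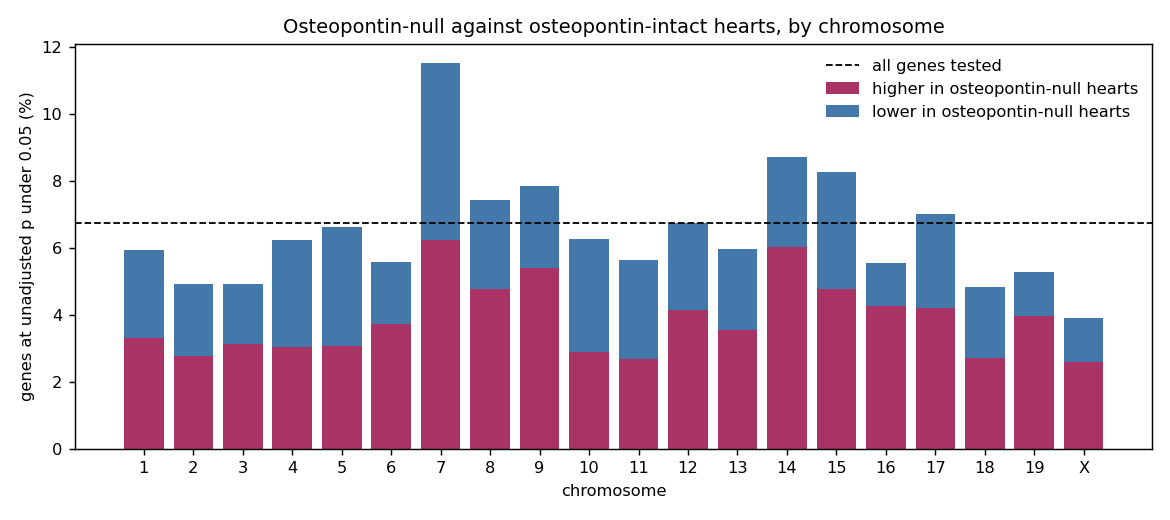
Share of tested genes (percent, 1 probe set per gene) with an unadjusted limma p under 0.05 on each nuclear chromosome, split by direction in null hearts; the dashed line is the share over all genes (6.75%). Chromosome 7 stands highest at 11.5%, with 64 genes higher and 54 lower.

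Along chromosome 7 these genes were spread over most of its length. In successive blocks of 100 tested genes the share ran from 8% to 17% except in 1 block, from Nfatc2ip to Lhpp, where it was 2%. The block from Snord35b to Lysmd4 had the highest share, with 10 genes higher and 7 lower. Both directions occurred in most blocks. Among the genes with the largest differences, chosen after their values were seen, was Slc1a5, which encodes a transporter of glutamine and other neutral amino acids. It was at 7.02, 7.74 and 7.12 in wild type, 7.02, 7.75 and 7.03 in Col4a3-/- and 8.08, 8.04 and 8.30 in null hearts (difference 0.86, SE 0.20, limma adjusted p = 0.390). Every null heart was above every intact heart. Trim12a, of a family of antiviral ubiquitin ligases, ran from 4.67 to 5.77 in intact and from 5.75 to 6.54 in null hearts and overlapped (difference 1.03, limma adjusted p = 0.397). Its intact mean of 5.17 lay under 5.21 as well. Kcnj11, which encodes the pore of the ATP-sensitive potassium channel, ran from 6.58 to 7.77 and from 7.84 to 8.20 (difference 0.84, limma adjusted p = 0.397).

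**Figure D3:**
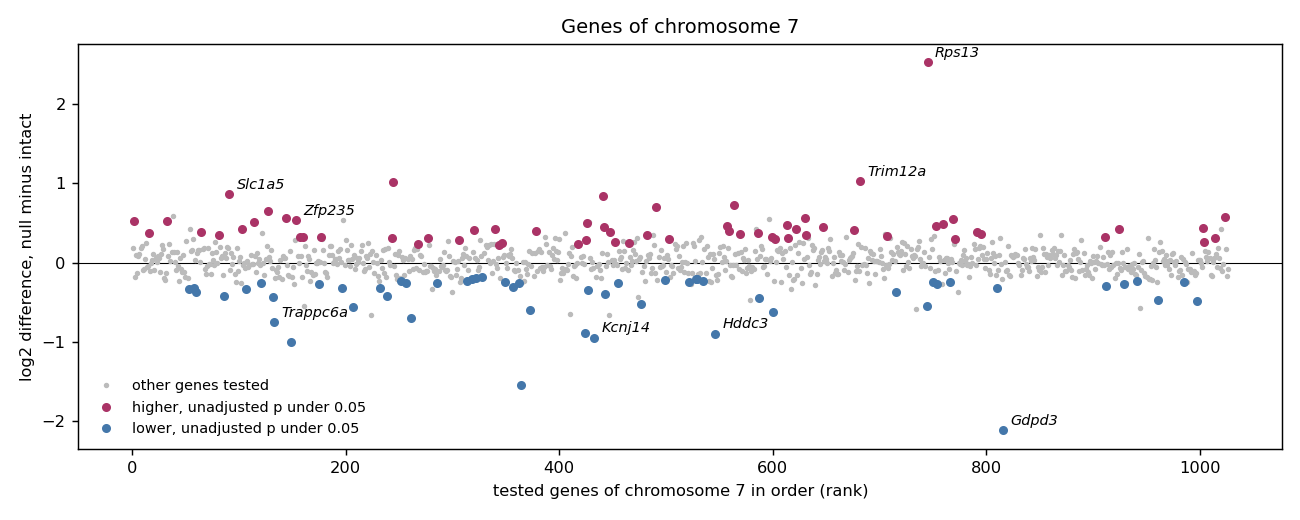
Log2 difference (null minus intact) of the 1026 tested genes of chromosome 7 in their order along the chromosome (rank); coloured points had an unadjusted limma p under 0.05. They lie along most of the chromosome in both directions, from Gdpd3 at -2.12 to Rps13 at 2.53.

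The deleted osteopontin gene lies on chromosome 5. Of the 50 genes on each side of it on chromosome 5, 39 had a probe set and 21 passed the filter. Of these, 0 were called, 0 had an unadjusted p under 0.05 and 0 separated the groups, and their differences ran from -0.47 to 0.38 (median 0.02). Over all named genes 6.75% had such a p and 4.29% separated the groups, so among 21 genes a count of 0 says little. Within 300 genes on each side, 9 of 160 tested genes had such a p (5.63%), 3 higher and 6 lower. Ppbp, with 258 annotated genes between it and Spp1, was among them. Gpat3, which encodes an acyltransferase of triglyceride synthesis, lies with 51 genes in between and was chosen after its values were seen. Its 2 probe sets moved in opposite directions. Probe set 17450196, too dim for testing, was at 5.06, 5.23 and 5.10 in wild type, 5.20, 5.11 and 4.998 in Col4a3-/- and 4.56, 4.61 and 4.63 in null hearts. With no filter it was called (difference -0.52, limma adjusted p = 0.0339), and all of its values lay near or under the median of all probe sets. Probe set 17439622, which was tested, ran from 6.91 to 7.37 in intact and from 7.27 to 7.38 in null hearts, which overlapped (difference 0.25, SE 0.12, limma adjusted p = 0.627). No direction can be given for the gene. Spp1 has no value here, since the annotation used names no probe set for it, and Col4a3 was too dim for testing, so neither deletion could be checked. The 4 measured relatives of osteopontin next to Spp1, Ibsp, Dmp1, Mepe and Dspp, which serve bone and tooth, had mean signals of 4.66 to 5.16 and were not tested.

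The receptors of osteopontin were measured at 11 of 12 genes with sufficient signal. None of the 11 had an unadjusted p under 0.05, while 6.75% of all named genes did. Differences lay between 0.04 and 0.27, with a median of 0.14, and the lowest limma adjusted p was 0.672. Itgav, the integrin chain that binds the RGD motif of osteopontin, was at 7.83 ± 0.13 (SD, n = 6) in intact and 7.96 ± 0.16 (n = 3) in null hearts. Its partner Itgb3 was at 5.93 ± 0.43 and 5.99 ± 0.14, and Itga9, whose product binds the cleaved form of osteopontin, at 7.27 ± 0.22 and 7.48 ± 0.27. Cd44 was at 5.66 ± 0.30 and 5.72 ± 0.016. Groups overlapped in each of these 4. The differences of Itgb3 and Cd44, both 0.06, turned negative in some settings (-0.02 for Itgb3 and -0.04 for Cd44 with the trend with gene length removed).

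Genes of the mitochondria, which the title names, were described by lists. Subunits of respiratory complex I encoded in the nucleus showed 0 of 33 genes at an unadjusted p under 0.05 (median -0.05), and complexes II to IV 1 of 26, lower (median -0.06). That gene was Cox7b, of cytochrome c oxidase, at 10.95 ± 0.16 (SD, n = 6) in intact and 10.56 ± 0.33 (n = 3) in null hearts. Among ATP synthase subunits 1 of 14 was lower, Atp5g2, which encodes the c ring (11.83 ± 0.08 and 11.65 ± 0.11, SD). Null hearts were all below the intact ones for Atp5g2 and not for Cox7b. Of 10 genes of the mitochondrial genome, each between 9 and 14 units, 4 were lower at that level and 0 higher, where 2.87% of all named genes were lower. They were COX1 (-0.17), COX3 (-0.16), ND2 (-0.19) and ND4L (-0.18), and all 10 had negative differences. Without null replicate 1, 0 of the 10 were at that level and 9 differences were negative. COX1 was then at -0.12, COX3 at -0.08, ND2 at -0.11 and ND4L at -0.09.

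Lists of genes of fuel oxidation and of mitochondrial upkeep had small median differences. Over all named genes 3.87% were higher and 2.87% lower at an unadjusted p under 0.05. Of 24 fatty acid oxidation genes 2 were higher and 0 lower at an unadjusted p under 0.05 (median 0.08). They were Acadvl, the very long chain acyl-CoA dehydrogenase gene (0.22), and Hadhb, of the trifunctional protein (0.33). The probe set of Hadhb was dim, at 5.39 to 5.92 in intact and 5.91 to 6.03 in null hearts, which overlapped. Of 20 genes of mitochondrial biogenesis and dynamics 2 were higher, Tfam, the packaging factor of mitochondrial DNA (0.28), and Mfn2, a fusion gene (0.27), with a median of 0.07. Mitochondrial ribosomal proteins had a median of 0.01 over 35 genes, with 1 higher at that level and 1 lower, Mrpl20 (-0.51). Of 25 antioxidant and stress genes 1 was lower, Gpx1, the main cytosolic glutathione peroxidase (-0.30), whose null values of 9.01 to 9.10 lay under the lowest intact heart at 9.15. Breakdown of branched-chain amino acids had 1 of 18 genes lower, Bcat2 (-0.90), while 15 of 18 differences were positive (median 0.10).

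Of 24 genes of the tricarboxylic acid cycle 1 was higher at an unadjusted p under 0.05, where 3.87% of all named genes were. This was Ogdhl, which encodes a form of oxoglutarate dehydrogenase best known from brain. It was at 5.06, 7.45 and 7.14 in wild type, 4.82, 4.58 and 5.09 in Col4a3-/- and 8.37, 6.95 and 7.58 in null hearts. Wild type replicate 1 and all Col4a3-/- hearts were under the median of all probe sets or near it, and the other 5 hearts were at 6.95 or above (difference 1.94, SE 0.63, limma adjusted p = 0.463). Rps13, on chromosome 7 and of the small ribosomal subunit, was at 4.65, 7.77 and 7.56 in wild type, 4.95, 4.93 and 4.98 in Col4a3-/- and 7.92, 8.54 and 8.55 in null hearts (difference 2.53, SE 0.69, limma adjusted p = 0.397). The same 4 intact hearts were low for both genes, and over the 9 hearts Pearson's r between them was 0.93 and Spearman's rho 0.82, as a description of 2 genes chosen for this pattern. Rps13 has near-identical copies, so its probe set may read more than 1 of them.

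Other probe sets stepped between hearts in other combinations. The 4 probe sets numbered 17548311, 17548313, 17548642 and 17548644, absent from the annotation used, were between 5.15 and 5.27 in 5 intact hearts, between 7.91 and 7.94 in wild type replicate 2 and between 8.43 and 8.66 in null hearts. Their differences were 2.82 to 2.84 (limma adjusted p = 0.280). Nxpe4 stepped in the same hearts, from 4.61 to 4.77 in 5 intact hearts, 5.98 in wild type replicate 2 and 5.66 to 6.01 in null hearts. Its intact mean of 4.92 lay under the 5.21 required for testing. Gm3893, a transcribed pseudogene with 3 tested probe sets, was high only in null replicates 1 and 3. Its probe set 17412962 was at 7.14 and 6.97 there, at 4.85 in null replicate 2 and between 4.89 and 4.92 in intact hearts. The intact means of all 3 probe sets (5.20, 4.91 and 4.93) lay under 5.21, so they passed only through the null hearts. These genes were chosen after their values were seen.

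Of 13 smooth muscle genes 3 were higher at an unadjusted p under 0.05 and 0 lower, where 3.87% of all named genes were higher and 2.87% lower (median 0.05, with -0.14 from wild type and 0.39 from Col4a3-/- hearts). Myh11, the smooth muscle myosin gene, was at 7.83, 8.01 and 7.99 in wild type, 6.90, 7.01 and 6.72 in Col4a3-/- and 8.15, 8.14 and 8.17 in null hearts. Null hearts were highest, only slightly above wild type (difference 0.74, SE 0.29, limma adjusted p = 0.547). The scaffold genes Synpo2 (0.31) and Ldb3 (0.41) were the others, and the sign of the median of the list flipped in 4 of 24 settings. Ldb3, at 9.47 to 10.26 in intact hearts, is not particular to smooth muscle, and the cell types behind these counts were not tested. Of 12 pericyte genes 2 were higher, Notch3 (0.53) and Pdgfrb (0.37). The median was 0.17, with 0.06 from wild type and 0.38 from Col4a3-/- hearts.

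**Figure D4:**
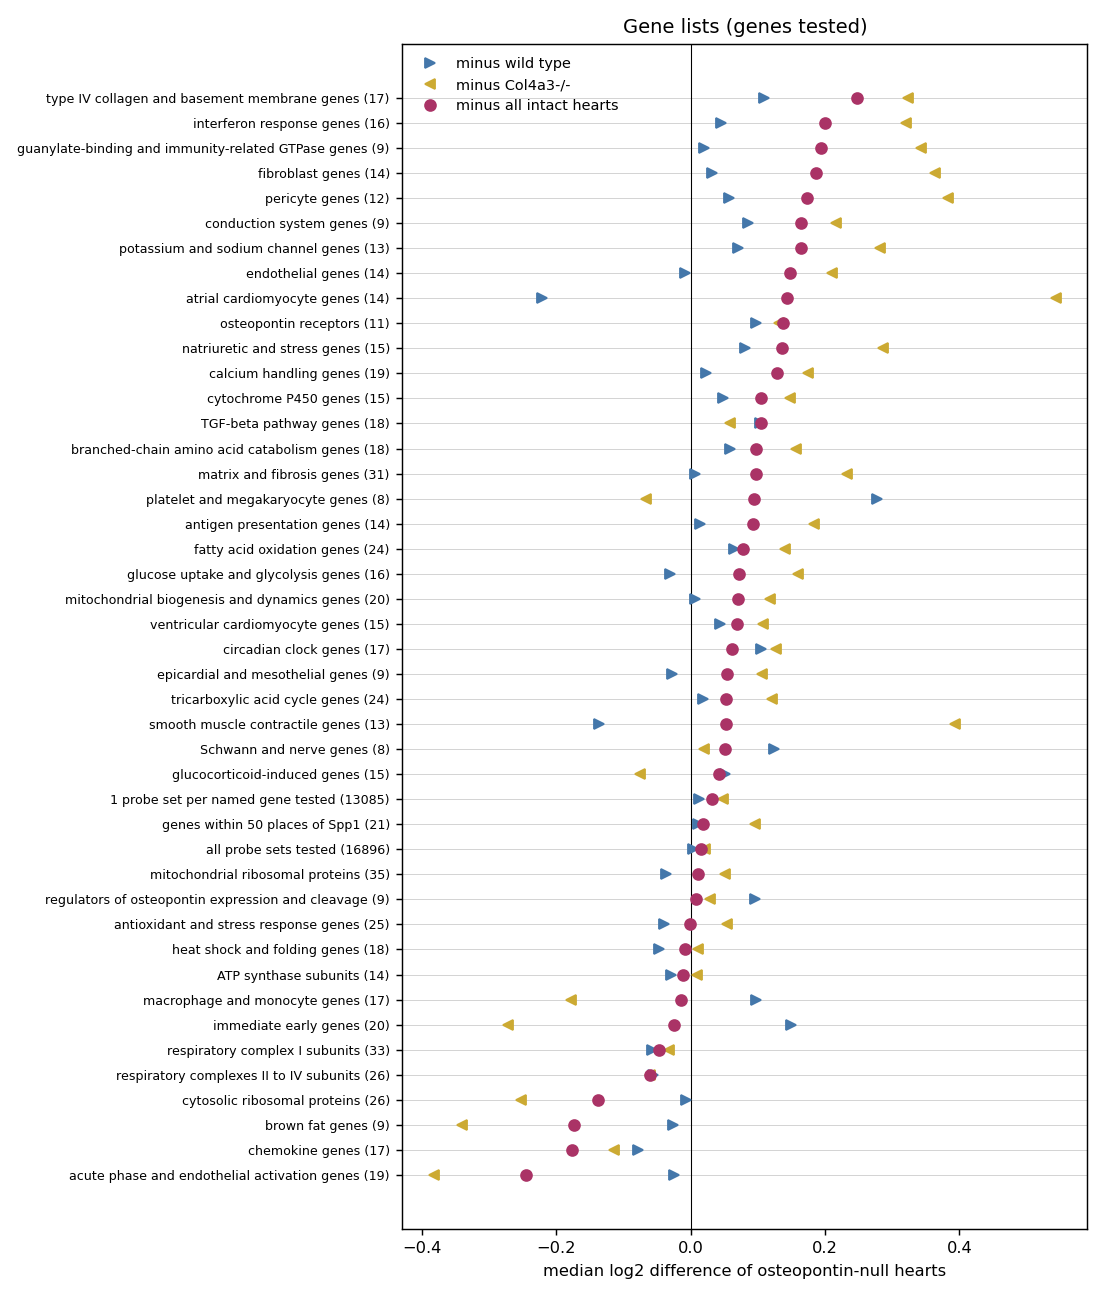
Median log2 difference of the null hearts from all intact (circles), wild type (right-pointing) and Col4a3-/- hearts (left-pointing triangles) for each gene list with at least 8 genes tested. Among these lists basement membrane genes are highest (0.25) and acute phase genes lowest (-0.24) against all intact hearts, and all probe sets have a median of 0.02.

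Lists of matrix genes had small median differences. Over all named genes 3.87% were higher and 2.87% lower at an unadjusted p under 0.05. Of 17 type IV collagen and basement membrane genes 1 was higher at that level, Agrn, the gene of the proteoglycan agrin (0.39), and 15 of 17 differences were positive (median 0.25, with 0.11 from wild type and 0.32 from Col4a3-/- hearts). That median was 0.13 without null replicate 1 and 0.09 with the trend with gene length removed. Of 31 matrix and fibrosis genes 1 was higher, Cilp, with a difference of 0.97. The median of the list was 0.10, with 0.01 from wild type and 0.23 from Col4a3-/- hearts. Without null replicate 1 the median against all intact hearts was -0.05. In the TGF-beta pathway 1 of 18 was higher, the ligand gene Tgfb3 (0.40), with a median of 0.10. Fibroblast genes had a median of 0.19 over 14 genes, endothelial genes 0.15 over 14 and macrophage and monocyte genes -0.01 over 17. None of the last 2 lists had a gene at an unadjusted p under 0.05. From wild type hearts these 3 medians were 0.03, -0.01 and 0.10, and from Col4a3-/- hearts 0.36, 0.21 and -0.18. Against all intact hearts the fibroblast median was 0.02 without Col4a3-/- replicate 3, and the endothelial median was 0.08 without null replicate 2.

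Genes of heart muscle and its currents gave 5 of 13 potassium and sodium channel genes at that level, against 6.75% of all named genes. Of these 5, 4 were higher, among them Kcnj11 and Kcnq1, which carries the slow delayed rectifier current. Kcnq1 was at 7.72 ± 0.21 (SD, n = 6) in intact and 8.15 ± 0.21 (n = 3) in null hearts. Kcne1, the partner subunit of Kcnq1, was lower, at 7.42, 7.24 and 6.71 in wild type, 7.79, 7.11 and 6.08 in Col4a3-/- and 6.06, 6.30 and 5.56 in null hearts. The groups overlapped through Col4a3-/- replicate 3 (difference -1.09, SE 0.31, limma adjusted p = 0.417). Kcnj14, the potassium channel gene among the lower 15 (-0.95), was not in this list. Kcnj11 was also named above after its values were seen, so the count for channel genes is no separate result. Cacna1g, a T-type calcium channel gene of the conduction system, had 0.57. Calcium handling genes had 0 of 19 at that level and a median of 0.13, which was 0.01 with the trend with gene length removed. Natriuretic and stress genes had 1 of 15, the receptor gene Npr2 (0.28), and ventricular cardiomyocyte genes 0 of 15 (median 0.07). Atrial genes had medians of -0.22 from wild type and 0.54 from Col4a3-/- hearts, and Col4a3-/- replicates 1 and 3 were low in them.

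In immunity, 4 of 16 interferon response genes were higher and 0 lower at an unadjusted p under 0.05, where 3.87% of all named genes were higher and 2.87% lower (median 0.20, with 0.05 from wild type and 0.32 from Col4a3-/- hearts). Without Col4a3-/- replicate 3 the median was 0.10. They included Ifit2 (0.78), Oasl2 (0.70) and Bst2 (0.64), genes of antiviral proteins, and the groups overlapped in each. Of 14 antigen presentation genes 2 were higher, among them Tap2, a peptide transporter gene (0.25). Of 19 acute phase and endothelial activation genes 0 were higher and 2 lower, Ccl2, a monocyte chemokine gene (-0.63), and Socs3, a brake on cytokine signals (-0.45). The median of that list was -0.24, with -0.02 from wild type and -0.38 from Col4a3-/- hearts. Col4a3-/- replicate 3 had Saa3 at 9.10 and Sele at 8.26, far above the other hearts, and without that heart the median was -0.07.

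Among remaining lists, Cyp2d22, a cytochrome P450 gene, ran from 6.53 to 7.64 in intact and from 7.82 to 7.96 in null hearts (difference 0.90, SE 0.22, limma adjusted p = 0.397). The clock genes Per3 (0.63) and Bhlhe41 (0.49) were the 2 of 17 at an unadjusted p under 0.05, and null hearts were the 3 highest for Per3. At that level 3.87% of all named genes were higher and 2.87% lower. Slc2a1, a glucose transporter gene, had 0.39. Cytosolic ribosomal protein genes had 2 of 26 lower (median -0.14). Airway genes such as Scgb1a1 were high in Col4a3-/- replicate 2 and in null replicates 1 and 3, and the median signal of 6 lung genes was 8.10, 6.69 and 6.62 there against 4.97 to 5.61 in the other hearts. Xist, an RNA of the inactive X chromosome, was high in 1 of 3 null and in 2 of 6 intact hearts. Both of these intact hearts were Col4a3-/- (replicates 1 and 3), the null heart was replicate 2, and no wild type heart was high. The Y-linked gene Eif2s3y was low in the same hearts and high in the others. The genotypes therefore differed in these sex markers, which limits the separate differences from wild type and from Col4a3-/- hearts. The part of these tissue and sex markers in the results was not tested gene by gene, and with Y-linked signal as a covariate 3 probe sets were called.

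Differences also moved with gene length and RNA class. When 12255 protein-coding genes were split by length into 5 equal groups, the median null minus intact difference from the shortest to the longest group went from -0.04 through 0.00, 0.04 and 0.07 to 0.11. In the shortest group 1.51% of genes were higher and 5.14% lower at an unadjusted p under 0.05, and in the longest 6.94% and 0.816%. Replicate 1 of the null and replicate 1 of the Col4a3-/- hearts lay farthest apart, at 0.16 and -0.15 from the mean over hearts in the longest group. The other 7 hearts lay between -0.07 and 0.03 there. The rank correlation of the difference with gene length over these genes was 0.33, as a description across genes. Ppbp was also called with that trend removed.

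**Figure D5:**
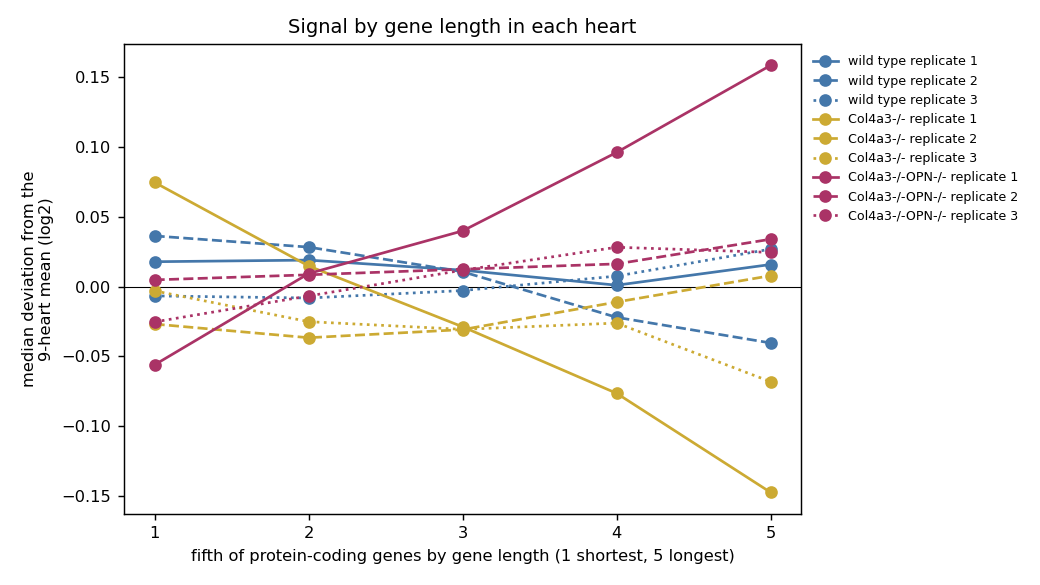
Median deviation of protein-coding genes from their mean over the 9 hearts (log2), in 5 groups by gene length, 1 line per heart. Null replicate 1 ends highest (0.16) and Col4a3-/- replicate 1 lowest (-0.15) in the longest group.

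Of 88 small nucleolar RNAs 1 was higher and 15 lower at an unadjusted p under 0.05, where 3.95% of all probe sets were higher and 4.37% lower. Their median difference was -0.26, with -0.10 from wild type and -0.37 from Col4a3-/- hearts, and 84 of 88 differences were negative. The median deviation of these RNAs from their mean over hearts was 0.02, 0.09 and -0.18 in wild type, 0.28, -0.02 and 0.35 in Col4a3-/- and -0.51, -0.11 and 0.04 in null hearts. The groups overlapped, and null replicate 1 was the lowest heart. Of 107 microRNA precursors 3 were higher and 15 lower (median -0.11). Of 62 pseudogenes 0 were higher and 16 lower (median -0.20).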

How the data were processed

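RNA from 9 snap frozen hearts was measured on 9 arrays. The deposited log2 values were made by the authors with RMA, which corrects background, normalizes arrays to one another and summarises probes, per the submitters' processing notes. Software version and genome build are not given in the sources used here. A small RNA labelling kit is named in the labels, yet the annotation belongs to a whole-transcript gene array, and the labelling used is therefore unclear.

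Genes were named from 23521 probe sets with 1 symbol, while 1814 had several and 8458 were not listed. RefSeq tables of GRCm38.p6 gave symbols, gene order, lengths and promoters. Probe sets with a mean above 5.21 were fitted with limma 3.58.1 in R 4.3.3 (lmFit and eBayes with an intensity trend, two-sided), 3 null against 6 pooled hearts. Differences from each intact genotype came from a fit with 1 coefficient per genotype. The median SE was 0.13, and the number of arrays limits the precision. Named genes were the 15 of smallest p in each direction, extremes of the gene lists and genes said to be chosen after their values were seen. A list takes 1 probe set per gene, that of highest mean, and is described by counts and medians only. The comparison, the lists and the rules were chosen with earlier results of these data known. Alternatives were 2 other scalings, 2 filters, 2 choices of probe sets, 6 designs or moderations, and hearts left out; removal of the trend with gene length and the leaving out of both replicates 1 were chosen after seeing the data. The fit was tested on simulated data. No date or batch is given in the labels.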

Additional observations from a re-analysis of the deposited data

Results flagged for a closer look

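Among 82 named probe sets, 9 had 1 of the 6 intact hearts far from the other 5, by a cut that chance passes in about 1 in 20 groups. The 82 include sample markers and genes chosen after their values were seen, and the 6 hearts pool 2 genotypes. The count of 9 therefore cannot be compared with chance. Wild type replicate 2 was high in Nxpe4 (5.98), the gene that stepped with the null hearts, and in the antiviral gene Bst2 (7.56). Col4a3-/- replicate 1 was high in the mitochondrial ribosomal gene Mrpl20 (7.76). Col4a3-/- replicate 2 was high in the junction gene Plekha7 (6.997) and in the airway gene Scgb1a1 (12.2). Col4a3-/- replicate 3 was high in Saa3 (9.10), Sele (8.26) and Itgb3 (6.79) and low in Itga9 (6.85). Each of these hearts belongs to the pooled intact group and widens its spread. Over all tested probe sets Col4a3-/- replicate 3 was also the array least like the rest, with a mean Pearson's r of 0.946. The other 8 arrays were at 0.966 or above.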

How the results depend on the processing

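Against the 3 called probe sets of the comparison, 1 was called among probe sets with 1 symbol, with 1 probe set per gene and with the trend with gene length removed, and it was Ppbp in each. These settings tested named genes only, so the other 2 called probe sets were not tested there. Leaving out both replicates 1 also left 1 called, probe set 17503531. With single hearts left out the count was 3 to 13, namely 8 when wild type replicate 2 was left out and 13 without Col4a3-/-OPN-/- replicate 2. The 1406 probe sets at an unadjusted p under 0.05 became 2543 with no filter, 693 with the stricter filter and 914 with 1 probe set per gene. Among the 13650 probe sets with 1 symbol they were 987, and 870 with the trend with gene length removed over 13586 of these. They became 732 without both replicates 1, and 798 (without Col4a3-/-OPN-/- replicate 1) to 1519 with single hearts left out. Replicate numbers did not pair the hearts (correlations of same-numbered deviations from -0.19 to 0.23). With the replicate number as a block 2 probe sets were called, both lower, and Ppbp was not (limma adjusted p = 0.0660). Ppbp was called in 21 of 23 settings that tested it. Signs turned for 3 named genes with differences near 0. With single hearts left out, Itgb3 ranged from -0.0114 to 0.231 and Cd44 from -0.0232 to 0.164. With the length trend removed they had -0.0204 and -0.0356, and without both replicates 1 they had -0.0446 and -0.0186, while Pf4 had -0.0140. The cause of these shifts was not tested. Signal near the median of all probe sets limits the size of differences in Ppbp, Snap91 and other dim genes.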
